A study of Rattus norvegicus with 4 samples.

Results

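The genes described here encode junction, receptor and surface proteins of endothelial cells, the cells that line blood vessels, and their RNA was followed in muscle from rats that model intermittent claudication, a pain of the legs in walking that comes with poor blood flow. They are Cldn5, Egfl7, Emcn, Pecam1, Cdh5, Tie1, Tek, Btnl9, Esam and Ptprb. They were taken as every probe set whose gene symbol in the array's annotation is one of these 10 names. 9 of the 10 were found, on 11 probe sets, among 10092 genes compared in all, and Cdh5 was not analysed here. All 9 lay above the floor on low signals on at least 1 array, and 8 of them on all 4.

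The 4 arrays held skeletal muscle RNA of F344/DuCrlCrlj rats. One came from ischemic muscle treated with electrical stimulation (ischemia + ES), one from ischemic muscle of exercised rats (ischemia + exercise), one from untreated ischemic muscle (ischemia) and one from sham animals. There was 1 array per group, so each difference below is between 2 arrays and has no replicate check, and no p-value can be given. The sources used here do not give the muscle taken, the age and sex of the rats, the number of animals behind an array or the timing of the treatments. In bulk muscle RNA, more endothelial cells and more RNA of these genes per cell cannot be told apart.

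Endothelial cells of muscle capillaries are held together by adherens junctions, built on VE-cadherin (the product of Cdh5), and by tight junctions, in which claudin-5 (Cldn5) is the main endothelial strand protein. PECAM1 and ESAM are adhesion proteins of the immunoglobulin family at the same contacts, and both also occur on platelets. The receptor tyrosine kinase TEK binds angiopoietins and keeps vessels stable, TIE1 is its partner receptor, and PTPRB is a phosphatase that acts on TEK and on the VE-cadherin complex. EGFL7 is secreted by endothelial cells into their matrix, endomucin (Emcn) is a mucin of the capillary and venous surface, and BTNL9 is a butyrophilin-like surface protein.

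Promoter windows of 5 of the genes were found in the RefSeq table of the GRCr8 build, each reaching from 250 bases before to 50 bases after a transcription start. They are shown because these genes had their highest signal on the same array. Capitals mark matches, on either strand, to the motifs CCGGAAG and CAGGAAG of ETS factors, ACAGGAA (a short form of a joint site of FOX and ETS factors), AGATAA of GATA factors, ACAATG of SOX factors, CCACCC of KLF factors, ACGTG of hypoxia-inducible factors and the TATA box TATAAA. The motifs ACAGGAA and CAGGAAG share 6 letters and can match at the same place. The windows, read 5′ to 3′ on the gene's strand, are those of Cldn5 (chr11:95718549-95718848, minus strand), Emcn (chr2:228564289-228564588, plus strand), Tie1 (chr5:137304932-137305231, minus strand), Btnl9 (chr10:33990255-33990554, minus strand) and 2 starts of Egfl7 (chr3:29805381-29805680 and chr3:29808051-29808350, plus strand).
Cldn5: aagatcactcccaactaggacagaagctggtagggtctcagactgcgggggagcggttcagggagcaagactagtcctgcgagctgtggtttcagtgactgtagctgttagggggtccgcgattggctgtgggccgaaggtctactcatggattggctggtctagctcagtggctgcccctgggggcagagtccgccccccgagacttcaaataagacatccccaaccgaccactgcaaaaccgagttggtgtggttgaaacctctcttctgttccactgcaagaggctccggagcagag
Egfl7, first start: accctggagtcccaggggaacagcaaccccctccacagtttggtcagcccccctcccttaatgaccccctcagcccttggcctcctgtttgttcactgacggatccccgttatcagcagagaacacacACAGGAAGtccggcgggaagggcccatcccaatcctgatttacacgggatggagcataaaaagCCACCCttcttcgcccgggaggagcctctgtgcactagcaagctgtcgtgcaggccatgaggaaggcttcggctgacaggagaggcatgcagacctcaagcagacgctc
Egfl7, second start: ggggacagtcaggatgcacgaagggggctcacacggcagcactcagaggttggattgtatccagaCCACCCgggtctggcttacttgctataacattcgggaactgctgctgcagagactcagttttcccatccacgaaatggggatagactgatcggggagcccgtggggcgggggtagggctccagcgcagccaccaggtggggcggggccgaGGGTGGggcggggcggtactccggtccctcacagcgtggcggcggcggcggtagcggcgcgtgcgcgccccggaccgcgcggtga
Emcn: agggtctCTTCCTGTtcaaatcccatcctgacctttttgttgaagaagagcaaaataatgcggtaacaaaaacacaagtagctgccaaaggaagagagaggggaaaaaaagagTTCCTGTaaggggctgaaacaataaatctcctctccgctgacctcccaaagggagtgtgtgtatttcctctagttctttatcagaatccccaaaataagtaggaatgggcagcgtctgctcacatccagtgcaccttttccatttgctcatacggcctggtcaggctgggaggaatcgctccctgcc
Tie1: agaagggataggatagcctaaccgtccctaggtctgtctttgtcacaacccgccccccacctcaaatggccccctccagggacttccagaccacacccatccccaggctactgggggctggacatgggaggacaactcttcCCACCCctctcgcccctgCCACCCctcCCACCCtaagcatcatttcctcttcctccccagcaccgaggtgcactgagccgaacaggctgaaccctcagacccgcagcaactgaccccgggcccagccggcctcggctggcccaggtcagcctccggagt
Btnl9: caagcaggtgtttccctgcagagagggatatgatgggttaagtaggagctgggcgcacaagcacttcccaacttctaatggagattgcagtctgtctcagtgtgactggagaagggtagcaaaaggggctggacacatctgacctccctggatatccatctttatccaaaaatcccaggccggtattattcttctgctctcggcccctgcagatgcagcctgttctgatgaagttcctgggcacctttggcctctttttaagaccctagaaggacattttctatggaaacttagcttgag

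In the first Egfl7 window the FOX and ETS motif and the ETS motif that starts with CAGG matched at 1 place, window positions 129 to 136. In the Emcn window the same pair of motifs matched at positions 8 to 15, and the FOX and ETS motif matched again at positions 114 to 120. Neither was found in the Cldn5, Tie1 and Btnl9 windows or in the second Egfl7 window. Of 33469 promoter windows of all genes, 12.5% held this ETS motif and 8.49% the FOX and ETS motif. The KLF motif, present in 29.4% of all windows, was found 3 times in the Tie1 window, 2 times in the second Egfl7 window and once in the first. The other ETS motif and the GATA, SOX, hypoxia and TATA motifs, present in 8.75%, 11.6%, 13.2%, 19.3% and 14.2% of all windows, were not found in the windows of the 5 genes. A match describes these letters and is not a binding site. Tek, Pecam1, Esam, Ptprb and Cdh5 were not matched in the table.

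Median signals were close on the 4 arrays, at 31.8 (ES), 30.3 (exercise), 29.3 (ischemia) and 29.0 (sham). All 11 measured skeletal muscle markers were above the floor on the 4 arrays, among them the muscle creatine kinase gene Ckm and the skeletal actin gene Acta1. For actin, the signal at the 3′ end divided by that at the 5′ end, a measure that increases with RNA degradation, was 5.94 on the ES array, 4.34 on the exercise array, 3.81 on the ischemia array and 4.38 on the sham array. For GAPDH the same measure was 1.26 (ES), 1.16 (exercise), 1.04 (ischemia) and 1.16 (sham), again highest on ES and lowest on ischemia. Because the ES array was highest both in this measure and in the endothelial genes, the 2 are given side by side, and the part of RNA quality in the results was not tested. Genes with at least 2 probe sets above the floor on all arrays (1844 genes) show how far probe sets of 1 gene differ: their log2 ratios of ES over ischemia were a median of 0.24 apart, and 0.64 apart at the 90th percentile.

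The first comparison asked how the endothelial genes stood on the ES array against the ischemia array. Of the 9 genes 6 were at least 2-fold higher with ES, namely Btnl9, Cldn5, Egfl7, Emcn, Pecam1 and Tie1, and none was at least 2-fold lower. Of all 10092 genes, 2.28% were at least 2-fold higher and 0.793% at least 2-fold lower. The median log2 ratio of the 9 genes was 1.06, a 2.08-fold difference, against a median of 0.05 over all genes. All 9 had ratios above 0, as did 56.0% of all genes.

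**Figure D1:**
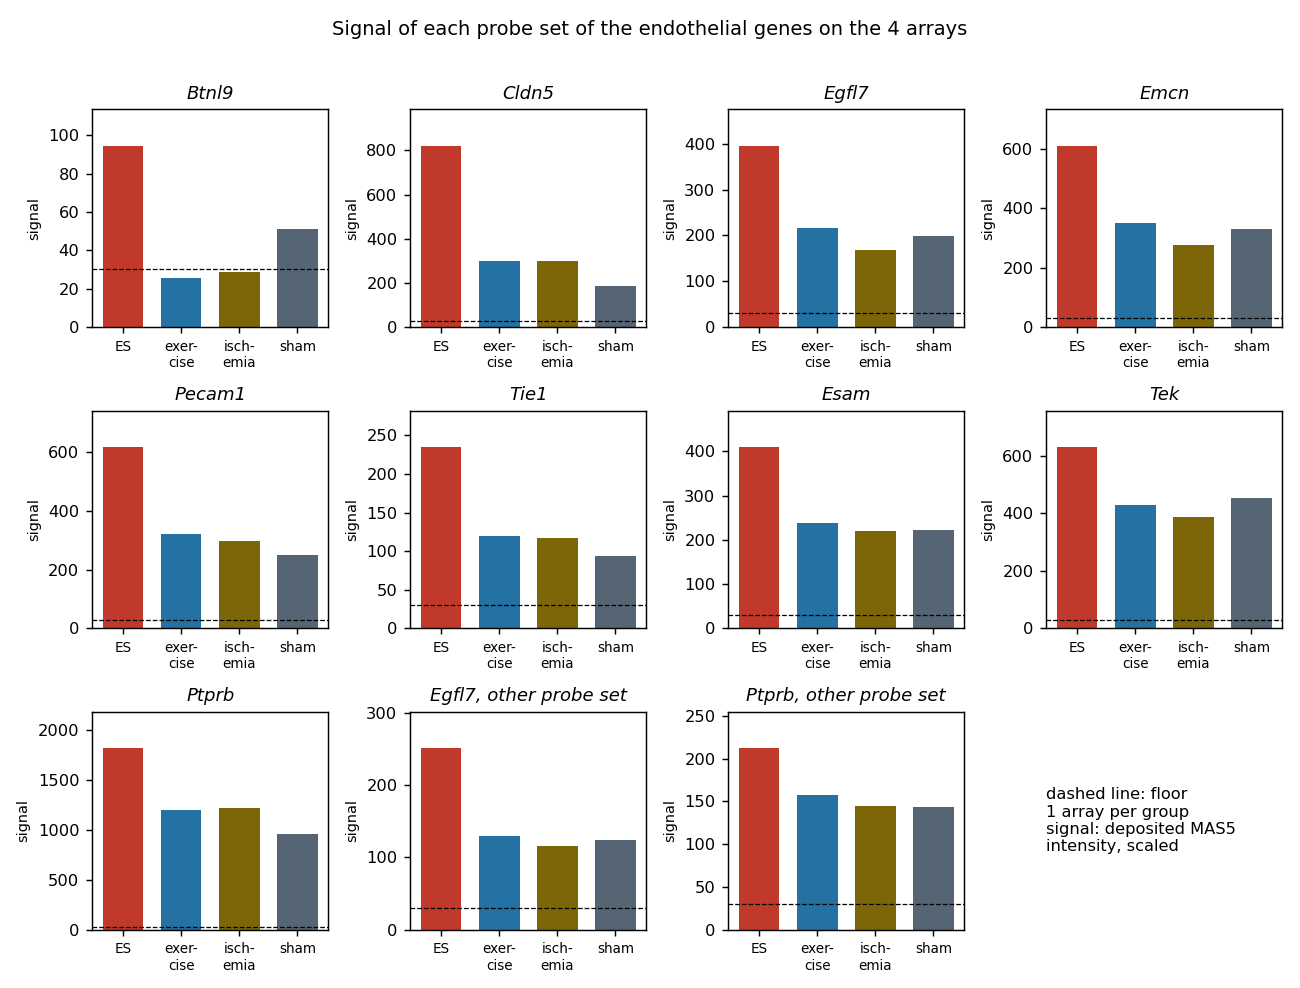
Signal (linear scale, deposited intensity brought to a common trimmed mean) of the 11 probe sets of the 9 measured endothelial genes on the ES, exercise, ischemia and sham arrays, 1 array each; the dashed line is the floor of 30.1. The ES bar is the tallest in all 11 panels, and Btnl9 lies under the floor on the exercise and ischemia arrays.

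Among the junction genes, Cldn5 had a signal of 821 on the ES array, 297 on the exercise array, 298 on the ischemia array and 184 on the sham array. The exercise and ischemia arrays were level and the sham array was lower still. Its ratio of ES over ischemia was 2.75-fold (log2 1.46), the 46th highest of the 10092 genes.

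Pecam1 had signals of 616 (ES), 321 (exercise), 296 (ischemia) and 249 (sham), so that the 3 other arrays lay near each other and the ES array apart from them. It was 2.08-fold higher with ES than with ischemia. Esam was at 410 (ES), 239 (exercise), 219 (ischemia) and 221 (sham). Its 3 other arrays differed by at most 1.09-fold, the narrowest span among the 9 genes, and its ES signal was 1.87-fold that of ischemia, just under the 2-fold threshold. At the other side of the threshold stood Tie1 at 2.01-fold.

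The receptor tyrosine kinase gene Tie1 had signals of 235 (ES), 120 (exercise), 117 (ischemia) and 93.5 (sham). Tek, the angiopoietin receptor gene, was at 631 (ES), 428 (exercise), 387 (ischemia) and 455 (sham). Tek was thus 1.63-fold higher with ES than with ischemia, a smaller ratio than that of its partner receptor gene. The phosphatase gene Ptprb had the lowest ratio of the 9, 1.49-fold, with signals of 1822 (ES), 1206 (exercise), 1226 (ischemia) and 959 (sham). Its second probe set gave 212 (ES), 158 (exercise), 145 (ischemia) and 143 (sham), a ratio of 1.46-fold. The 2 Ptprb probe sets were 0.02 apart in log2 ratio of ES over ischemia, closer than is typical for probe sets of 1 gene. The genes of the TEK receptor system therefore lay at 1.49-fold (Ptprb), 1.63-fold (Tek) and 2.01-fold (Tie1).

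Among the secreted and surface genes, Egfl7 had signals of 396 (ES), 217 (exercise), 169 (ischemia) and 198 (sham). Its second probe set, of a kind open to cross-hybridization, gave 251 (ES), 129 (exercise), 115 (ischemia) and 123 (sham). Both probe sets put ES over ischemia past 2-fold, at 2.35-fold and 2.18-fold, and both had their lowest signal on the ischemia array. Emcn was at 611 (ES), 352 (exercise), 278 (ischemia) and 329 (sham), with the ischemia array lowest here too and a ratio of ES over ischemia of 2.20-fold. Btnl9 had 94.6 (ES), 25.8 (exercise), 28.6 (ischemia) and 51.4 (sham). Its exercise and ischemia signals lay under the floor of 30.1, so its ratio of ES over ischemia is a bound, at least 3.14-fold.

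The ES array was the highest of the 4 for 9 of 9 genes and 11 of 11 probe sets, and it was the highest for 39.7% of all genes. On floored signals the distance in log2 from the ES array to the next array was larger than the whole range of the other 3 arrays for 9 of 9 genes, which held for 18.0% of all genes. For Btnl9 this rests on the floor. The distance was largest for Cldn5 (1.46, against a range of 0.70) and smallest for Tek (0.47, against 0.23). Btnl9 had a distance of 0.88 and a range of 0.77, which is a lower bound because its exercise and ischemia signals lay under the floor. Without the floor its range was 0.995 and exceeded the distance, as it also did with quantile normalization (0.76 against a range of 0.83), with loess (0.75 against 0.88) and with the floor at the 30th percentile. The ratio of distance to range was highest for Esam, with 0.78 against 0.12.

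**Figure D2:**
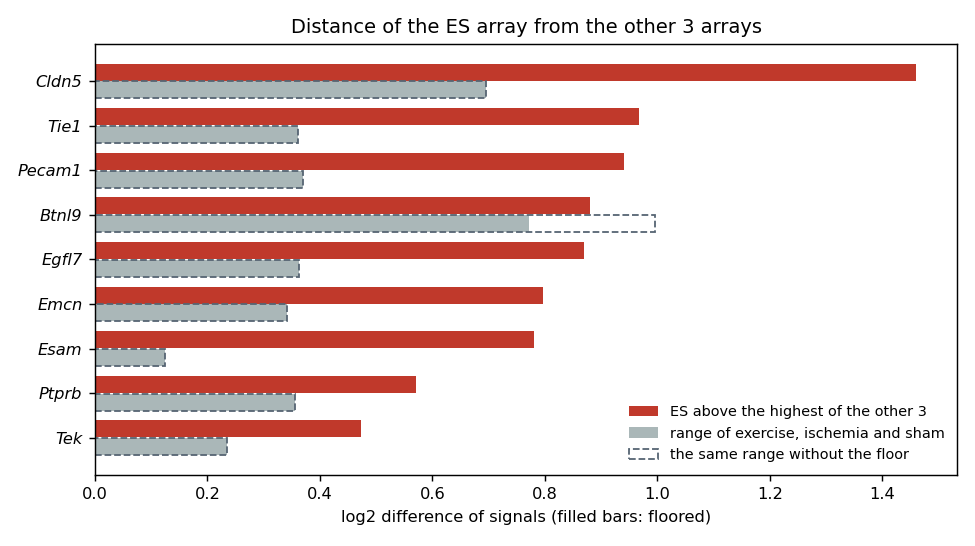
Log2 distance of floored signals from the ES array to the highest of the other 3 arrays (red) and log2 range of the exercise, ischemia and sham arrays (grey) for the 9 genes; the dashed outline is that range without the floor. The red bar is longer than the grey bar for each gene, from 1.46 against 0.70 for Cldn5 to 0.47 against 0.23 for Tek, but for Btnl9 the outline, at 0.995, is longer than the red bar, at 0.88.

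The exercise array was set against the same ischemia array, so this comparison and the previous one share that array. No endothelial gene passed 2-fold in either direction with exercise, where 1.14% of all genes were at least 2-fold higher and 0.872% at least 2-fold lower. The median log2 ratio of the 9 genes was 0.12, a 1.09-fold difference, against 0.00 over all genes. The highest ratios were those of Egfl7 (1.29-fold) and Emcn (1.27-fold), both lower in ischemia than in sham as well. The second Egfl7 probe set gave 1.12-fold. Tek (1.11-fold), Esam (1.09-fold), Pecam1 (1.09-fold) and Tie1 (1.03-fold) were nearer to 1. Cldn5 had a log2 ratio of -0.004 and Ptprb one of -0.02, and the sign of both differed between processing settings. Btnl9 was under the floor on both arrays and has no ratio. These ratios are no larger than the typical disagreement of probe sets of 1 gene in this comparison (a median of 0.20 in log2, 0.57 at the 90th percentile), apart from Egfl7 (0.36) and Emcn (0.34), which lie between those values.

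The ES array was then set against the exercise array, the 2 treated ischemic muscles. All 9 genes had ratios above 0, with a median log2 ratio of 0.87, a 1.83-fold difference, against 0.03 over all genes. 2 of the 9 were at least 2-fold higher with ES, where 2.95% of all genes were, and none was at least 2-fold lower, where 1.10% of all genes were. The 2 were Btnl9, at least 3.14-fold, and Cldn5, 2.76-fold. Tie1 (1.96-fold), Pecam1 (1.92-fold) and Egfl7 (1.83-fold) followed within 2-fold. Emcn was at 1.74-fold, Esam at 1.72-fold, Ptprb at 1.51-fold and Tek at 1.47-fold. This comparison and that against ischemia share the ES array. Leukocyte and fibroblast markers had medians of 0.94 and 0.63 here, and their part was not tested.

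**Figure D3:**
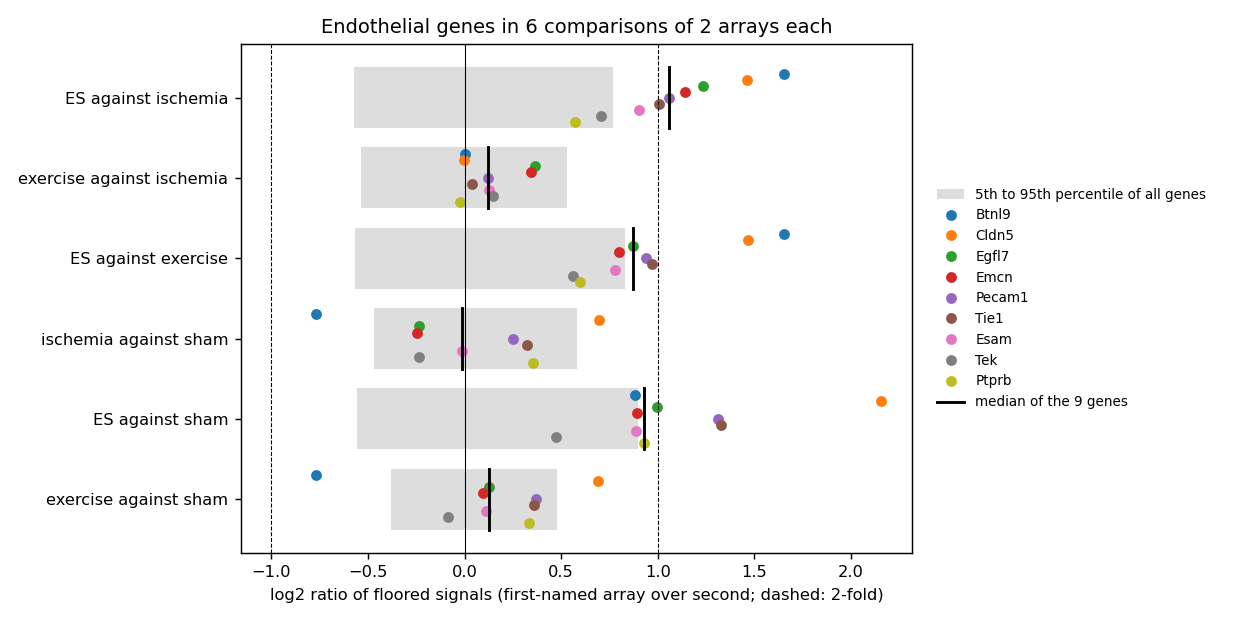
Log2 ratios of floored signals of the 9 endothelial genes (coloured points) in 6 comparisons of 2 arrays, with their median (black bar) and the 5th to 95th percentile of all 10092 genes (grey); dashed lines mark 2-fold. The medians of the 3 comparisons with ES on top are 1.06, 0.87 and 0.93, and those of the other 3 are 0.12, -0.02 and 0.13; a Btnl9 ratio of 0 in the exercise and ischemia comparison stands for 2 signals under the floor.

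Ischemia against sham showed the endothelial genes without any treatment. None of the 9 passed 2-fold, where 0.783% of all genes were at least 2-fold higher and 0.862% at least 2-fold lower. Their median log2 ratio was -0.02, with 4 genes above 0 and 5 below, against 0.002 over all genes. The genes did not go one way. Cldn5 was 1.62-fold higher in ischemia than in sham, Ptprb 1.28-fold, Tie1 1.25-fold and Pecam1 1.19-fold. On the lower side stood Btnl9, at least 1.71-fold lower in ischemia, and Emcn, Egfl7 and Tek, 1.19-fold, 1.18-fold and 1.18-fold lower. Esam was level (1.01-fold). The second Ptprb probe set gave a ratio of 1.01-fold, so the difference on the brighter Ptprb probe set was not seen on both. Cldn5 (0.70 in log2) and Btnl9 (-0.77) lay beyond the 5th to 95th percentile of all genes (-0.47 to 0.58), and the other 7 within it.

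Against sham, the ES array had 3 of the 9 genes at least 2-fold higher, where 3.78% of all genes were, and none at least 2-fold lower, where 1.06% were. The median log2 ratio was 0.93, a 1.90-fold difference, against 0.05 over all genes. Cldn5 was 4.46-fold higher with ES than in sham, the 11th highest ratio of 10092 genes. Tie1 was 2.51-fold and Pecam1 2.48-fold higher. Egfl7 stood at 1.996-fold on its brighter probe set and 2.03-fold on the other. Ptprb was 1.90-fold higher on the brighter probe set and 1.48-fold on the other, Emcn and Esam were 1.86-fold and 1.85-fold higher, Btnl9 1.84-fold and Tek 1.39-fold. Leukocyte and fibroblast markers had medians of 0.76 and 0.77 in this comparison, and their part was not tested. The exercise array against sham had none of the 9 past 2-fold, where 0.258% of all genes were at least 2-fold higher and 0.188% at least 2-fold lower. Its median log2 ratio was 0.13, Cldn5 was 1.61-fold higher and Btnl9 at least 1.71-fold lower with exercise than in sham.

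The 9 genes shared the high ES signal and differed in what the other arrays did. Sham was the lowest array for Cldn5, Pecam1, Tie1 and Ptprb, and ischemia was the lowest for Egfl7, Emcn, Tek and Esam. The exercise array was the lowest for Btnl9, where exercise and ischemia were both under the floor. Each of sham and ischemia was thus lowest for 4 of 9 genes, while sham was lowest for 25.8%, ischemia for 26.6% and exercise for 21.4% of all genes. Centred on its own mean over the 4 arrays, the median log2 profile of the 8 genes above the floor on all arrays was 0.74 (ES), -0.12 (exercise), -0.25 (ischemia) and -0.32 (sham). Esam lay nearest to this profile, at a Euclidean distance of 0.13 in log2 units over the 4 arrays, and Cldn5 farthest, at 0.78.

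The genes whose 4 signals were most like that median profile were ranked among 8766 others above the floor on all arrays. The 10 nearest were Hrct1, Hmcn2, Srgap2, Fabp4, Apln, Eef1akmt2, Jcad, Spata33, Hdac1 and Hlx, at distances of 0.05 to 0.12, where the median distance of the 8766 genes was 0.85. Hrct1, the nearest, had signals of 402 (ES), 232 (exercise), 206 (ischemia) and 195 (sham). Fabp4, Apln and Jcad, at places 4, 5 and 7, are described next and do not stand for the 10. Fabp4, a fatty acid binding protein gene of adipocytes and capillaries, had signals of 4215 (ES), 2218 (exercise), 2154 (ischemia) and 1989 (sham). Apln, which encodes the vessel growth peptide apelin, had 314 (ES), 170 (exercise), 149 (ischemia) and 152 (sham). Jcad, a gene of endothelial cell junctions, had 729 (ES), 404 (exercise), 396 (ischemia) and 378 (sham). With 4 arrays many genes can come this near, and the distance says nothing more than that the 4 values are alike.

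**Figure D4:**
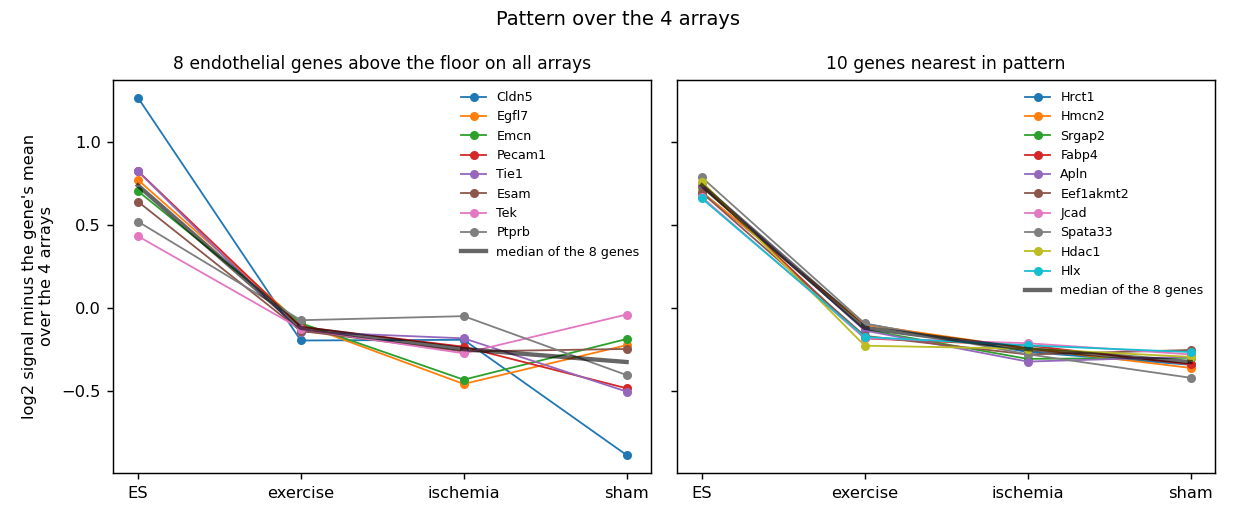
Log2 signal minus the gene's own mean over the 4 arrays, for the 8 endothelial genes above the floor on all arrays (left) and the 10 genes nearest to their median profile (right); the thick line is that median, at 0.74, -0.12, -0.25 and -0.32 on the ES, exercise, ischemia and sham arrays. Cldn5 has the widest swing of the 8, and the 10 nearest genes lie within 0.12 of the median profile in Euclidean distance.

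The other genes of endothelial cells and their junctions were counted in lists to set the 9 genes in context, each against the 2.28% of all genes at least 2-fold higher with ES than with ischemia. Of 28 other endothelial surface and signalling genes 22 were measured, with a median log2 ratio of 0.49, 5 at least 2-fold higher and none lower. Gpihbp1, whose product binds lipoprotein lipase on the capillary lumen, was 4.40-fold higher, Cd93 2.65-fold, Mcam 2.51-fold and Ecscr 2.43-fold. The other Mcam probe set had a log2 ratio of 0.76, under 2-fold. That of Cd93 had 0.10, with its ischemia signal under the floor. The 22 genes did not all go one way: 4 had ratios below 0, and Flt1, a VEGF receptor gene, had signals of 103 (ES) and 101 (ischemia). Kdr, the main VEGF receptor gene, was 1.86-fold higher, Nos3, the endothelial nitric oxide synthase gene, 1.91-fold and Vwf, encoding von Willebrand factor, 1.49-fold. Kdr and Nos3 had their highest signal on the ES array, but Vwf did not. Vwf had signals of 189 (ES), 218 (exercise), 128 (ischemia) and 200 (sham), so its ES signal was below those of exercise and sham. Capillary exchange genes (10 measured of 11) had a median of 0.74 with 3 at least 2-fold higher, Gpihbp1 again, Car4 (2.92-fold) and Aqp1 (2.03-fold, other probe set 0.36 in log2 ratio).

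For ES over ischemia, junction partners that other cell types use as well had a lower median ratio than the 9 genes. All 15 measured of 19 had ratios above 0, with a median of 0.39, and 1 was past 2-fold, the junction adaptor gene Afdn at 2.70-fold, whose other 2 probe sets were under the floor. The other endothelial surface and signalling genes were also lower than the 9 genes, at 0.49. For ES over exercise the junction partners had a median of 0.51 and those endothelial genes 0.48. For ES over sham the medians were 0.72 and 0.42. Tjp1, which encodes the scaffold protein to which claudins bind, had signals of 1346 (ES), 835 (exercise), 739 (ischemia) and 791 (sham). The claudin family outside Cldn5 was mostly not seen in this muscle: of 20 genes, 15 had a probe set and 4 were above the floor on any array, with none past 2-fold for ES over ischemia. Cldn12 had signals of 291 (ES), 297 (exercise), 296 (ischemia) and 286 (sham), and so was level where Cldn5 was not. Cldn22 had 68.8 (ES), 46.7 (exercise), 50.8 (ischemia) and 33.7 (sham), highest on ES and lowest on sham as Cldn5 was. It was 2.04-fold higher with ES than in sham. Cldn3 was above the floor on the ES array only (32.9), and Cldn1 on the sham array only (36.4). No butyrophilin relative of Btnl9 was above the floor, with 4 of 9 having a probe set.

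The angiopoietin side of the TEK system could be seen only in part. Angpt1, the activating ligand gene, never exceeded the floor. Angpt2, whose product often opposes it, had signals of 204 (ES), 205 (exercise), 143 (ischemia) and 101 (sham), level between the 2 treated arrays where Tek and Tie1 were higher with ES. Of 9 listed ligands and partners 5 were measured, and none passed 2-fold for ES over ischemia (median 0.15).

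Endothelial transcription factor genes had a median log2 ratio of 0.75 for ES over ischemia, with 5 of 19 measured genes at least 2-fold higher and none lower. They were Sox18 (2.98-fold), Hhex (2.74-fold), Sox7 (2.08-fold), Gata2 (2.06-fold) and Elk3 (2.04-fold). Of the 19 genes 15 had ratios above 0 and 4 below. The 4 were Klf4 (log2 ratio -0.53), Mef2c (-0.13), Nr2f2 (-0.10) and Lmo2 (-0.09). Of the 3 other Elk3 probe sets, 2 were above the floor, at log2 ratios of 1.08 and 0.53. Of the ETS family genes, whose motif was searched in the promoters, Fli1 had signals of 496 (ES), 239 (exercise), 260 (ischemia) and 185 (sham), and Erg had 116 (ES), 62.5 (exercise), 87.7 (ischemia) and 59.7 (sham). Both were highest on the ES array. So were Sox18, Sox7 and Gata2, of the SOX and GATA families, whose motifs were searched and not found in the promoter windows. Whether the motifs bear on these signals was not tested. The KLF genes of the same list, whose motif was also searched, did not have this order. Klf4 had 258 (ES), 307 (exercise), 373 (ischemia) and 636 (sham), and was 2.47-fold lower with ES than in sham. Klf2 had 442 (ES), 508 (exercise), 351 (ischemia) and 913 (sham), and was 2.07-fold lower with ES than in sham, with its 4 other probe sets at log2 ratios of -1.19 to 0. Notch genes, some of them partners of EGFL7, had a median of 0.52 with none of 9 past 2-fold for ES over ischemia, and Hey2 was at least 3.17-fold higher with exercise than with ischemia, 95.4 against 28.7, where it lay under the floor.

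**Figure D5:**
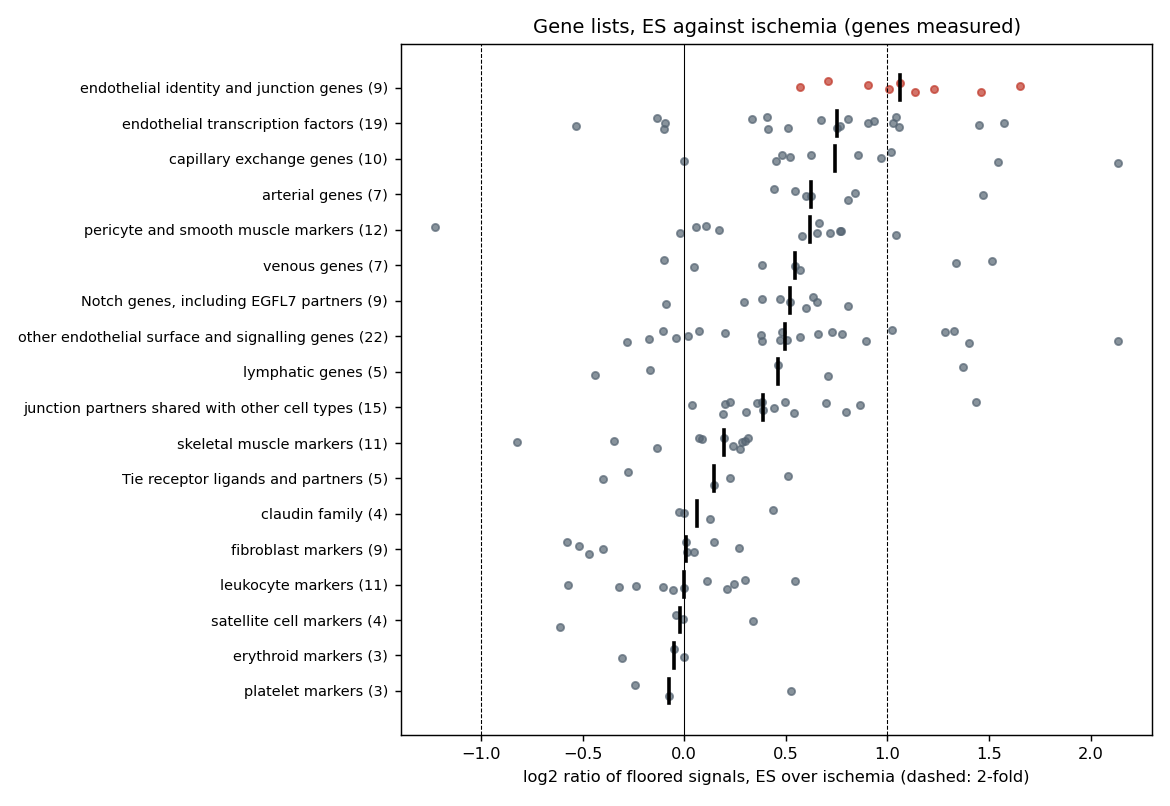
Log2 ratios of floored signals, ES over ischemia, of each measured gene (points) and the list median (black bar) for the 9 endothelial genes (red, top) and 17 other lists sorted by median, with the number of genes measured in brackets; dashed lines mark 2-fold. The medians run from 1.06 for the 9 genes and 0.75 for endothelial transcription factors to 0.00 for leukocyte and -0.07 for platelet markers.

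Markers of other cells that carry some of these proteins were followed beside them, since PECAM1 also occurs on leukocytes and platelets. The leukocyte markers (11 measured of 18) summed to a signal of 3465 (ES), 1476 (exercise), 2987 (ischemia) and 1530 (sham), with a median log2 ratio of 0.00 for ES over ischemia and none past 2-fold. Ptprc, the pan-leukocyte gene, had 116 (ES), 45.8 (exercise), 108 (ischemia) and 60.6 (sham). The leukocyte sum and Ptprc were thus higher on the ES and ischemia arrays than on the exercise and sham arrays. For ischemia over sham the leukocyte median was 0.90, and that of the endothelial genes was -0.02. Of the 11 leukocyte markers 8 were above 0 there and 3 below, namely S100a9, S100a8 and Cd163. For ES over exercise the leukocyte median was 0.94, with 4 of 11 at least 2-fold higher, and for ES over sham it was 0.76, with 3 of 11 at least 2-fold higher, among them the macrophage gene Cd68 at 4.17-fold. In both comparisons they moved with Pecam1, and their part in its ratios was not tested. The lysozyme gene Lyz2 made up 60.5% to 73.7% of the leukocyte sum on each array. The T cell genes Cd3e, Cd3d and Cd2 and the myeloid gene Itgam did not exceed the floor on any array.

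Platelet markers (3 measured of 8) summed to 244 (ES), 209 (exercise), 260 (ischemia) and 333 (sham). Pf4, the platelet factor 4 gene, made up 61.0% to 74.0% of this sum on each array. Itga2b, the platelet integrin gene, had signals of 51.0 (ES), 41.7 (exercise), 35.5 (ischemia) and 52.4 (sham), and so was 1.44-fold higher with ES than with ischemia, where the sum was lower. The platelet genes Gp9 and Ppbp did not exceed the floor on any array. Pericyte and smooth muscle markers (12 measured) had a median log2 ratio of 0.62 for ES over ischemia and sums of 14126 (ES), 13539 (exercise), 12277 (ischemia) and 12964 (sham). Des, the desmin gene, which muscle fibres express as well, made up 70.4% to 72.6% of each sum, and without it the sums were 4186 (ES), 3707 (exercise), 3444 (ischemia) and 3831 (sham). For ES over ischemia Myh11 was 2.06-fold higher and Lmod1 2.34-fold lower. In this comparison the pericyte and smooth muscle markers moved with the endothelial genes in the median, and their part in the result was not tested. Their medians were 0.34 for ES over exercise and 0.15 for ES over sham, against 0.87 and 0.93 for the endothelial genes. Fibroblast markers (9 measured) had a median of 0.01 for ES over ischemia. Their medians were 0.63 for ES over exercise and 0.77 for ES over sham, each with 2 of 9 at least 2-fold higher, Thy1 and Col1a1, so in those comparisons they moved with the endothelial genes, and their part in the result was not tested. For ES over ischemia the median was -0.02 for satellite cell markers (4), -0.05 for erythroid markers (3) and 0.20 for skeletal muscle markers (11). Among the vessel types, arterial genes (7 measured) had a median of 0.63, venous genes (7) of 0.55 and lymphatic genes (5) of 0.46, with Cxcr4 (2.77-fold), Aplnr (2.86-fold), Nrp2 (2.53-fold) and Ccl21 (at least 2.59-fold) past 2-fold. Only 2 of the 5 lymphatic genes were above the floor on all arrays, and both were lower with ES than with ischemia. These were Lyve1, at 127 against 172, and Pdpn, at 61.7 against 69.3. Ccl21, Prox1 and Reln were under the floor on the ischemia array, and the lymphatic median is the floored ratio of Reln. The lymphatic gene Prox1 had another order, with 49.2 (ES), 225 (exercise), 26.7 (ischemia, under the floor) and 130 (sham), at least 7.46-fold higher with exercise than with ischemia.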

How the data were processed

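Skeletal muscle RNA of 4 rat groups was measured on 1 single-colour oligonucleotide array each, from biotinylated cRNA primed at the 3′ end, per the labels' protocols. The authors deposited 1 intensity per probe set on a linear scale, and the submitters' processing notes name MAS5 with no version number. The 2% trimmed mean was 150.1 on each deposited array. This scaling hides differences in total mRNA, and MAS5 values of dim probe sets carry much noise. The annotation of 2016 gave a single gene symbol to 20832 of the 31099 probe sets, and the 436 with several were not used to name genes. For 20764 the gene identifier was found in RefSeq (GRCr8), where 0 symbols differed.

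After scaling to a common trimmed mean, signals were floored at the 50th percentile over the 4 arrays (30.1) and converted to log2. The probe set with the highest mean signal stood for a gene. A gene was counted where the ratio of 2 arrays reached 2-fold; with 1 array per group there was no test, and the number of arrays limits the precision. The replicate spread is unknown, so probe sets of 1 gene served as a guide to measurement error. The calculations were tested on simulated arrays, with 3-fold changes placed in bright probe sets only. That check does not cover dim genes or ratios near 2-fold. Python 3.11.15, numpy 2.4.6, pandas 2.3.3, matplotlib 3.10.9, R 4.3.3 and limma 3.58.1 were used. Alternatives were quantile and cyclic loess normalization, floors at the 30th or 70th percentile, log2(signal + 32), the mean of a gene's probe sets, leaving out probe sets open to cross-hybridization, thresholds of 1.5-fold and 3-fold and, added after seeing the data, scaling to 18 hybridisation controls.

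The members, the gene lists and the motifs were chosen with earlier results of these data known. The naming rule took all members on all probe sets, the 10 genes nearest in pattern, the checks Ptprc, Itga2b, Nos3, Kdr and Vwf, the control probe sets, and up to 4 listed genes per list, comparison and direction past 2-fold. Of these listed genes only some are printed, mostly for ES over ischemia. Other genes named (such as Flt1, Tjp1, Cldn1, Cldn3, Cldn12, Angpt1, Angpt2, Fli1, Erg, Elk3, Mef2c, Nr2f2, Lmo2, S100a8, S100a9, Cd163, Pf4, Des and genes under the floor) were chosen after their values were seen. A few genes stood in 2 lists. Protein sequences were not analysed here.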

Additional observations from a re-analysis of the deposited data

How the results depend on the processing

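Over the 9 settings that give ratios, the median log2 ratio of the measured genes stayed between 0.96 and 1.09 for ES over ischemia, 0.78 and 0.91 for ES over exercise, 0.85 and 0.98 for ES over sham, 0.11 and 0.14 for exercise over ischemia and 0.11 and 0.18 for exercise over sham. It changed sign for ischemia over sham, between -0.04 and 0.09, so no direction is given there. The ES array was highest for every gene measured in every setting, 8 genes with the floor at the 70th percentile, where Btnl9 was no longer measured, and 9 in the others. Its distance to the next array exceeded the range of the other 3 for 8 genes with quantile normalization, loess and the floor at the 30th percentile, where Btnl9 lost this, for the 8 measured with the floor at the 70th percentile and for 9 in the others. Among the 6 genes past 2-fold for ES over ischemia, Tie1 was under the threshold with quantile and loess normalization (0.99 and 0.98 in log2 ratio), with log2(signal + 32) (0.84) and with hybridisation-control scaling (0.90), and Pecam1 with the last 2 (0.98 and 0.96). For exercise over ischemia, Cldn5 and Ptprb changed sign between settings, within -0.04 and 0.05, and for ischemia over sham Esam did, within -0.04 and 0.01. With the floor at the 70th percentile, 1 gene in place of 2 passed 2-fold for ES over exercise. At a threshold of 1.5-fold, 8 genes passed for ES over exercise and 8 for ES over sham. Of all genes, 15.1% and 16.7% passed there, higher or lower. For ischemia over sham 2 genes passed and for exercise over sham 2 (in both, 1 higher and 1 lower). Of all genes, 8.14% and 4.64% passed there. For ES over ischemia all measured genes but Ptprb (1.49-fold) passed 1.5-fold, as did 14.5% of all genes. At 3-fold 1 gene passed for ES over ischemia, 1 for ES over exercise and 1 for ES over sham. Of all genes, 0.337%, 0.664% and 0.773% passed 3-fold in these comparisons. The range between the highest and lowest log2 ratio of ES over ischemia was 1.08, and 0.81 with log2(signal + 32), which understates dim genes such as Btnl9. Hybridisation-control scaling gave 164 genes higher and 123 lower for ES over ischemia over all genes, against 230 and 80. No paired analysis was possible because each group has 1 array, and leaving out an array leaves its comparisons without a value.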
